A study of Homo sapiens with 6 samples.

Results

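The carbonic anhydrases are 7 genes, CA2, CA5B, CA8, CA9, CA11, CA12 and CA13, of 58735 gene identifiers counted in each of 6 RNA sequencing libraries of A549, a widely used cell line derived from human lung carcinoma. They were taken by gene symbol, and the family was selected on its counts and fold changes of B35 over control in these same libraries. Their differences between the groups are therefore a description and not a test. The cells received the compound B35, which the series describes as blocking LSD1 (a histone demethylase encoded by KDM1A), at 2 µM for 72 h (3 libraries), or were left untreated for the same 72 h (3 libraries, called control). All cells were labelled wild type and grown in medium with serum. The labels name no solvent for the control, and separate cultures are not stated. Errors and p-values therefore cover the spread between libraries, which may be technical.

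Carbonic anhydrases are zinc enzymes that interconvert carbon dioxide and bicarbonate, releasing or taking up a proton, and family members differ mainly in where they sit. CA9 and CA12 are held in the plasma membrane with the catalytic domain outside the cell, CA2 and CA13 are cytosolic, and CA5B is mitochondrial. CA8 and CA11 are carbonic anhydrase-related proteins that lack the enzyme activity. In lung and other tumours CA9 is known as a target of the hypoxia-inducible factors (HIF) and serves as a marker of low oxygen, and both membrane enzymes are linked to the export of acid from cancer cells.

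Of the 7 genes, 6 had a count in at least 1 library and 5 (CA9, CA12, CA5B, CA11 and CA13) had enough counts to enter the fit over 14773 genes. CA9, CA12, CA5B and CA11 were higher with B35 in every B35 library than in any control library, and CA13 overlapped between the groups. By size, CA9 stood apart at 19.2-fold, and CA12, CA5B and CA11 lay between 1.63-fold and 1.82-fold. CA2 had no count in any library and CA8 had 2 counts in all. The 4 higher genes were past the threshold of the edgeR quasi-likelihood fit over all genes (Benjamini-Hochberg adjusted p under 0.05), beside 15.4% of all tested genes in either direction and 8.82% in the upward direction. None was past it in the downward direction, beside 6.59% of all tested genes. Groups without overlap and higher with B35 were found for 18.8% of all tested genes. Because the list was drawn up with this contrast known, nothing is read from the count of 4.

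CA9 lies on chromosome 9 (35673856 to 35681159, plus strand, GENCODE 29 on hg38, ENSG00000107159), and CA12 on chromosome 15 (63321378 to 63382161, minus strand, ENSG00000074410). CA5B is on chromosome X (15688830 to 15788409, plus strand, ENSG00000169239) and CA11 on chromosome 19 (48637942 to 48646312, minus strand, ENSG00000063180). Promoter sequence was matched by symbol for CA9, CA12 and CA5B, 3 of the 4 genes that were higher with B35, and is shown to place the letters of the HIF core motif in them. Each sequence holds the 250 bases before the transcription start in RefSeq (GRCh38.p14), 5′ to 3′ on the gene's strand, and capitals mark ACGTG or GCGTG read on either strand.
CA9, chr9:35673678-35673927, plus strand: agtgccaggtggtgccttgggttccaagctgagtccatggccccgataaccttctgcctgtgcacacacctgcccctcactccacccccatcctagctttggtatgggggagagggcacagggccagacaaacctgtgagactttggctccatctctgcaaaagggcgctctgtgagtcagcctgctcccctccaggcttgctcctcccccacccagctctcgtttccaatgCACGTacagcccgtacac
CA12, chr15:63381847-63382096, minus strand: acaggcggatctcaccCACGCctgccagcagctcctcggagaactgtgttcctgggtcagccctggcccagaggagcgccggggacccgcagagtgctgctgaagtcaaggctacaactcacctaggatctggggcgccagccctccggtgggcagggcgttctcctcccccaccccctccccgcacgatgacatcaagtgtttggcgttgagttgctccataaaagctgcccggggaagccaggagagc
CA5B, chrX:15738020-15738269, plus strand: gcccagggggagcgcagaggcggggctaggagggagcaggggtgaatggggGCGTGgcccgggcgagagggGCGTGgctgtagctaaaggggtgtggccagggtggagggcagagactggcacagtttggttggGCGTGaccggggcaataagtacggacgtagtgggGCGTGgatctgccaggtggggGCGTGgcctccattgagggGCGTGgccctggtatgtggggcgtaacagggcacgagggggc
The CA9 window held 1 match, ACGTG on the strand opposite to the gene, from base -18 to base -14 before the start. The CA12 window held 1 match of GCGTG on the opposite strand, from base -234 to base -230. The CA5B window held 6 matches of GCGTG, all on the gene's strand and spread from base -199 to base -38, and no ACGTG. Over 35116 RefSeq windows of the same length, 18.5% held ACGTG, 32.2% held GCGTG and 43.2% held at least 1 of these motifs, so a window with 1 match is common. At least as many matches as in CA5B were found in 0.646% of windows. The CA5B window was also rich in G and C (69.2%, beside 60.4% for CA9, 64.8% for CA12 and a median of 58.0% over all windows). These matches describe letters only, and binding was not measured. The CA5B and CA12 windows lie inside the GENCODE 29 bounds of these genes, and the CA9 window runs past the GENCODE 29 start of CA9. These bounds are the outer ends over all annotated transcripts of a gene, which the counts cover. Starts of single transcripts were not compared between RefSeq and GENCODE 29. These windows are therefore not the only possible promoters of the counted genes. No promoter of CA11 is shown.

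CA9, the membrane enzyme with the widest difference, was counted 280, 420 and 561 times in B35 replicates 1, 2 and 3, and 25, 27 and 11 times in control replicates 1, 2 and 3. In CPM, counts scaled to a common library size, the level was 15.8, 23.3 and 29.6 CPM with B35, against 1.39, 1.49 and 0.654 CPM in control cells. The lowest B35 library lay above the highest control library by a wide margin, and the 3 B35 libraries also differed among themselves. The mean was 22.9 ± 6.88 CPM with B35 and 1.18 ± 0.459 CPM in control cells (SD, n = 3 each), a log2 fold change of 4.26 ± 0.30 (SE). Only 0.0203% of the tested genes had a larger log2 fold change. By coefficient of variation CA9 was the most variable of the 5 tested members in both groups, and reached 38.9% in control cells. B35 replicate 1, which lay apart from the other B35 libraries on the second principal component of all tested genes (22.8% of the variance), was also the lowest B35 library for CA9. Without that library the CA9 log2 fold change was 4.46 ± 0.23, and over all 14 alternative settings it ran from 3.98 to 4.46.

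CA9 shares exon positions with ARHGEF39, a gene on the opposite strand, over 643 bases or 38.5% of the exon length of CA9. The labels name a NEBNext Ultra RNA kit, which does not mark strand, so reads in those bases cannot be told apart by strand. Of all 100-base stretches in the annotated CA9 transcripts, 24.4% were also found in ARHGEF39 transcripts, read on either strand, and none in another gene. ARHGEF39 had 412, 399 and 449 counts with B35, against 343, 397 and 353 counts in control cells. Its log2 fold change was 0.15 ± 0.11 (SE), and it did not pass the test (edgeR adjusted p = 0.379). CA9 had fewer counts than ARHGEF39 in every control library, and more than ARHGEF39 in B35 replicates 2 and 3.

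CA12, the other membrane enzyme, was the most abundant member by count, with 2396, 2089 and 2641 counts in B35 replicates 1, 2 and 3, and 1136, 1378 and 1256 counts in control replicates 1, 2 and 3. The levels were 135, 116 and 139 CPM with B35, against 63.3, 76.3 and 74.7 CPM in control cells. The groups did not overlap, and the B35 library that was lowest for CA9 was not the lowest for CA12. The mean was 130 ± 12.5 CPM with B35 and 71.4 ± 7.07 CPM in control cells (SD, n = 3 each), which is 1.82-fold higher with B35 (log2 0.87 ± 0.11, SE). No 100-base stretch of the annotated CA12 transcripts was found in another gene. The log2 fold change ran from 0.78 to 0.94 over 14 alternative settings.

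CA5B, the mitochondrial enzyme, had 470, 477 and 547 counts in the B35 libraries and 278, 291 and 277 counts in the control libraries. These are levels of 26.6, 26.5 and 28.8 CPM with B35, against 15.5, 16.1 and 16.5 CPM in control cells. It had the closest replicates of the 5 tested members, with a coefficient of variation of 4.89% with B35 and 3.07% in control cells, and the groups were well apart. CA5B was 1.70-fold higher with B35 (log2 0.77 ± 0.11, SE). A neighbouring pseudogene, CA5BP1, resembles CA5B and overlaps it on the same strand, and the assignment of reads that match both is uncertain. The 100-base stretches of CA5B found also in CA5BP1 transcripts made up 1.17%. CA5BP1 had 345, 304 and 381 counts with B35, against 405, 324 and 307 counts in control cells, which overlap, and did not pass the test (log2 -0.06 ± 0.13, SE, edgeR adjusted p = 0.815). There were thus 0.734, 0.637 and 0.697 CA5BP1 counts for each CA5B count with B35, against 1.46, 1.11 and 1.11 in control cells. A further 20.7% of the CA5B stretches lie in INE2, an antisense gene that had no count in any library. All exon bases of INE2 lie in CA5B exons, and the assignment of reads there is not stated. The absence of counts therefore does not show that INE2 was not expressed.

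CA13, the cytosolic enzyme that was detected, lies on chromosome 8 (85220587 to 85284073, plus strand, ENSG00000185015). It had 80, 98 and 112 counts in the B35 libraries and 106, 118 and 89 counts in the control libraries. The levels of 4.52, 5.44 and 5.90 CPM with B35 and 5.91, 6.53 and 5.29 CPM in control cells overlapped. The log2 fold change was -0.16 ± 0.18 (SE), within its own error of 0, and it stayed between -0.25 and -0.06 over 14 alternative settings. AC011773.3, which shares 3.46% of the CA13 exon bases, had 1 count in all. CA2, the fast cytosolic enzyme of red cells, kidney and bone, lies near it (85463852 to 85481493, plus strand, ENSG00000104267) and had 0 counts in all 6 libraries. With 3 counts as the limit that a count of 0 allows, this sets an upper level of 0.158 to 0.178 CPM per library, for counting error only.

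CA11, a related protein without enzyme activity that is known mainly from brain, had 294, 347 and 363 counts with B35, against 184, 192 and 215 counts in control cells. The levels were 16.6, 19.3 and 19.1 CPM with B35 and 10.3, 10.6 and 12.8 CPM in control cells, without overlap. CA11 was 1.63-fold higher with B35 (log2 0.71 ± 0.14, SE), and the log2 fold change ran from 0.65 to 0.81 over 14 alternative settings. SEC1P, a pseudogene that shares 74 exon bases with CA11, had at most 3 counts in a library. CA8, the other related protein, which binds the inositol trisphosphate receptor ITPR1, is on chromosome 8 (60187347 to 60281412, minus strand, ENSG00000178538). It had 2 counts in B35 replicate 3 and none in the other 5 libraries. Both groups lay under the floor of 3 counts, so no fold is given for CA8.

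**Figure D1:**
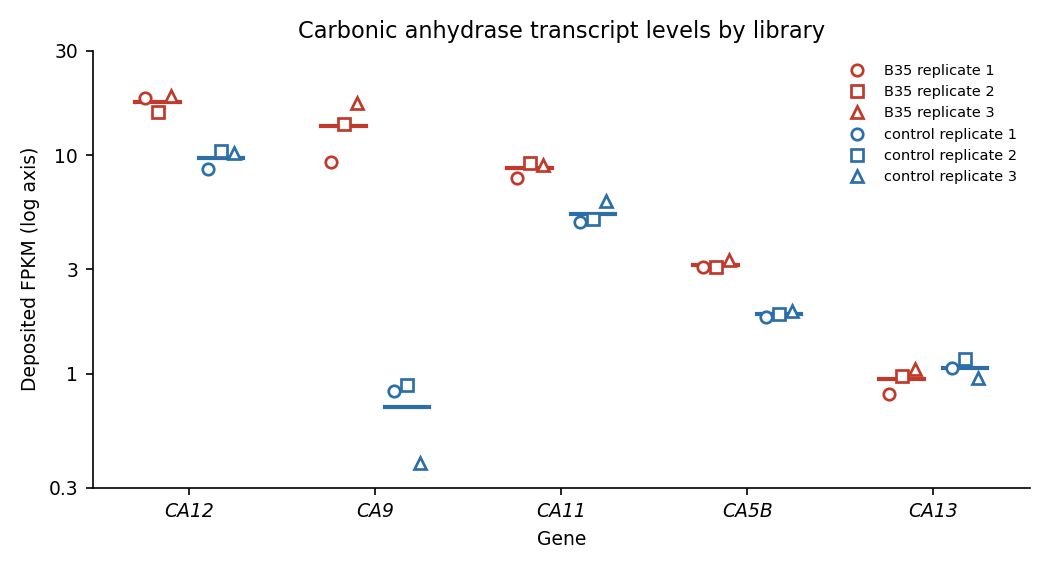
Deposited FPKM (log axis) of the 5 tested carbonic anhydrases in each library, B35 in red and control in blue, with 1 symbol per replicate and a bar at the group mean. CA12, CA9, CA11 and CA5B have no overlap between groups, and CA13 at 0.806 to 1.17 FPKM overlaps.

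Levels of different genes can be compared only per length, for which the deposited FPKM (counts scaled by exon length and library size) were used. In control cells the order was CA12 at 9.73 ± 0.968, CA11 at 5.39 ± 0.669, CA5B at 1.87 ± 0.0611, CA13 at 1.06 ± 0.109 and CA9 at 0.704 ± 0.272 FPKM (mean ± SD, n = 3), and no neighbours in this order overlapped. By deposited FPKM CA9 was thus the lowest of the 5 tested members in control cells, subject to the limit on shared bases given below. With B35 the order was CA12 at 17.5 ± 1.57, CA9 at 13.5 ± 4.01, CA11 at 8.71 ± 0.717, CA5B at 3.16 ± 0.135 and CA13 at 0.942 ± 0.123 FPKM. The ranges of CA12 (15.7 to 18.6 FPKM) and CA9 (9.33 to 17.3 FPKM) overlapped there. CA12 was the higher in deposited FPKM in each B35 library, subject to the same limit. The range of CA9 lay above that of CA11 (7.89 to 9.21 FPKM). CA12 was 1.95, 1.14 and 1.08 times CA9 in B35 replicates 1, 2 and 3, and 10.4, 11.7 and 26.1 times CA9 in control replicates 1, 2 and 3. The length of CA9 includes the 643 bases shared with ARHGEF39, 38.5% of it, and the assignment of reads there is not stated. INE2, whose 1874 exon bases all lie in CA5B exons, had no count in any library. Reads in those bases were thus not counted for both genes. If reads in shared bases were left out, the FPKM of CA9 and CA5B are too low for the bases that could be counted. The places of CA9 beside CA12 with B35 and beside CA13 in control cells, and the shares given next, depend on this.

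The membrane members combined made up the larger part of carbonic anhydrase transcripts in both groups, and more of them with B35. CA9 and CA12 summed to 27.6, 29.6 and 36.0 FPKM in B35 replicates 1, 2 and 3, and to 9.44, 11.3 and 10.6 FPKM in control replicates 1, 2 and 3. The cytosolic and mitochondrial members CA2, CA8, CA13 and CA5B summed to 3.88, 4.06 and 4.37 FPKM with B35, against 2.87, 3.05 and 2.89 FPKM in control cells. The ratio of group means was 2.98 for the membrane sum and 1.40 for the cytosolic and mitochondrial sum. As a share of all 7 genes, the membrane members held 70.7 ± 1.97% with B35 and 55.6 ± 2.15% in control cells (SD, n = 3 each). CA9 alone held 23.7, 32.3 and 35.1% of the sum over all 7 genes in B35 replicates 1, 2 and 3, and 4.82, 4.58 and 1.99% in control replicates 1, 2 and 3. CA12 alone held 40.3 ± 5.30% of the same sum with B35 and 51.8 ± 1.73% in control cells (SD, n = 3 each), without overlap. That lower share is relative to a sum that includes CA9, as CA12 itself was 1.82-fold higher with B35.

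**Figure D2:**
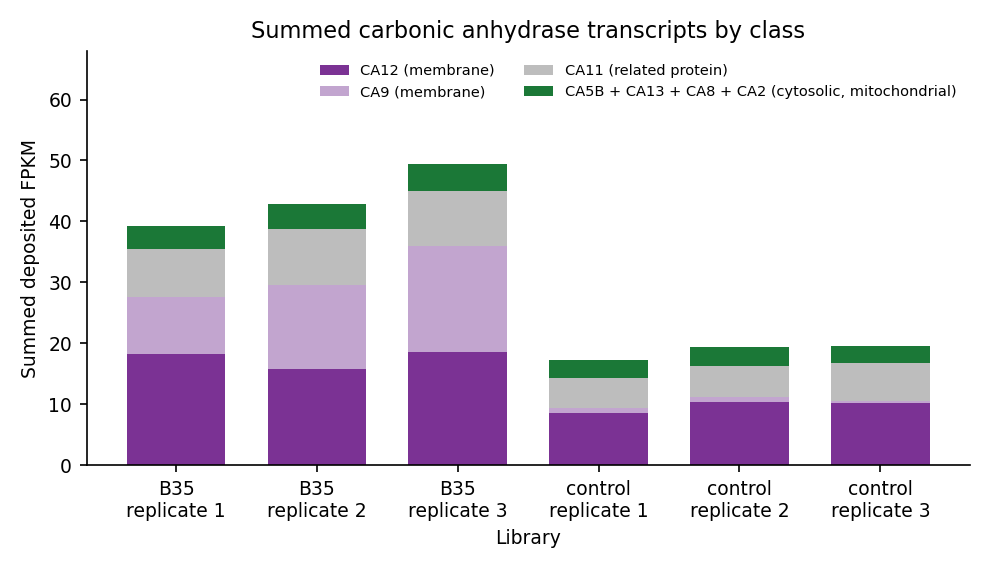
Summed deposited FPKM of the carbonic anhydrases in each library (B35 left, control right), stacked by class. The total is 39.3 to 49.4 FPKM with B35 and 17.2 to 19.6 FPKM in control cells, and the CA9 block is the part that differs most.

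Set against CA5B alone, the intracellular member that was higher with B35, CA12 did not separate between the groups. CA12 was 5.94, 5.10 and 5.63 times CA5B in B35 replicates 1, 2 and 3, and 4.76, 5.52 and 5.28 times CA5B in control replicates 1, 2 and 3, which overlap. The ratio of CA11 to CA5B also overlapped, at 2.57, 2.99 and 2.72 with B35, against 2.72, 2.71 and 3.19 in control cells. Against the sum of CA5B, CA13 and the 2 counts of CA8, CA12 was 4.28 ± 0.415 times as high with B35 and 3.31 ± 0.277 times as high in control cells (SD, n = 3 each), without overlap. Members of 1 location thus differed in fold: CA9 and CA12 in the membrane were 19.2-fold and 1.82-fold higher with B35, and inside the cell the mitochondrial CA5B was 1.70-fold higher while the cytosolic CA13 did not pass the threshold.

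Of the other 10 family genes, given to account for the whole family, 9 were at or near 0. CA1, CA4 and CA10, and PTPRZ1, a receptor phosphatase with a carbonic anhydrase-like domain, had no count in any library. CA3, CA5A, CA6, CA7 and CA14 had at most 12 counts in a library, too few to test, and CA14, a further membrane enzyme, had 12 counts with B35 and 20 in control cells. PTPRG, the other receptor phosphatase with such a domain, was the only 1 of the 10 that was tested, at 10.7, 6.77 and 7.17 CPM with B35 against 8.47, 7.86 and 7.37 CPM in control cells (log2 0.06 ± 0.19, SE, edgeR adjusted p = 0.883). Its groups overlap. PTPRG had an unadjusted edgeR p of 0.778, and DESeq2 and limma-voom did not call it. The other 9 were not tested in these fits.

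The genes whose pattern was most like that of CA9 over the 6 libraries, by Pearson's r of log2 CPM among 12611 tested genes with a standard symbol (clone names and LINC numbers left out) and a mean of 1 CPM or more, were UBA7 (r = 0.998), TRIM32 (r = 0.995) and TJP3 (r = 0.995). For CA12 they were GRN (r = 0.999), ABCD4 (r = 0.997) and TNFRSF1B (r = 0.996). These 6 points share only 2 conditions, so that any gene differing cleanly between the groups scores high. The likeness is in shape and not in size, as TRIM32 was 1.12-fold higher with B35 (edgeR adjusted p = 0.243) and UBA7 1.33-fold higher (edgeR adjusted p = 0.0546), which did not pass, while TJP3, a tight junction protein, rose by 2.23-fold. GRN, the gene of progranulin, had 981, 891 and 1018 CPM with B35, against 502, 602 and 596 CPM in control cells. Its lowest B35 library was replicate 2 and its lowest control library replicate 1, as for CA12. GRN was picked for this likeness, so the shared order is no separate observation.

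Carbonic anhydrases act with transporters that move bicarbonate and acid across membranes. None of the tested SLC4 and SLC26 genes, listed here as bicarbonate transporters, passed the test. The list was drawn up by gene family, and transport of bicarbonate by each member was not measured. Of 18 SLC4 and SLC26 genes and CFTR, 7 were tested, with 0 calls by edgeR, by DESeq2 or by limma-voom and 0 at an unadjusted p under 0.05, beside 15.4% called among all tested genes. Their median log2 fold change was 0.09, beside 0.0067 over all genes. The most abundant by count was SLC4A2, a chloride-bicarbonate exchanger, at 195, 264 and 313 CPM with B35 and 250, 317 and 275 CPM in control cells, which overlap (log2 -0.13 ± 0.16, SE, edgeR adjusted p = 0.634). SLC26A6, another anion exchanger, had 55.7 ± 8.33 CPM with B35 and 58.4 ± 9.07 CPM in control cells (SD, n = 3 each).

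In the list of proton and lactate export, 2 of 12 tested genes rose and none fell (median log2 0.18). This share of 16.7% is close to the 15.4% called over all tested genes. Both are sodium-proton exchangers of the Golgi rather than of the cell surface. SLC9A7 had 59.0, 44.5 and 54.4 CPM with B35 and 28.7, 33.8 and 29.8 CPM in control cells (1.71-fold, edgeR adjusted p = 0.00306). SLC9A8 was 1.58-fold higher (edgeR adjusted p = 0.00828) and lost its call without control replicate 3 (0.0561), where 1 gene of the list passed. Without B35 replicate 1, 3 genes rose and 1 fell.

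Among enzymes that use bicarbonate, 2 of 9 tested genes fell and none rose (median log2 -0.21). This is 22.2% of the list, beside 15.4% called in either direction and 6.59% called lower over all tested genes, and rests on 2 genes. PCCB, a subunit of the mitochondrial propionyl-CoA carboxylase, had 54.6 ± 5.82 CPM with B35 and 77.3 ± 0.970 CPM in control cells (SD, n = 3 each), without overlap (log2 -0.50 ± 0.10, SE, edgeR adjusted p = 0.00859). CPS1, the mitochondrial carbamoyl phosphate synthase, had 948, 804 and 859 CPM with B35 and 983, 1183 and 1175 CPM in control cells (log2 -0.36 ± 0.10, SE, edgeR adjusted p = 0.0404). Both act in mitochondria, where CA5B is known to supply bicarbonate. The call of CPS1 was lost with upper-quartile scaling (0.0603) and without control replicate 2 or 3 or B35 replicate 2 or 3 (edgeR adjusted p from 0.0927 to 0.181), and that of PCCB without control replicate 3 (0.0530). Without control replicate 3 no gene of the list passed, and 1 passed where B35 replicate 2, B35 replicate 3 or control replicate 2 was left out.

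Among 6 tested binding partners and channels, ITPR1, the calcium channel that CA8 binds, fell to 63.9, 65.8 and 62.5 CPM with B35, against 97.0, 116 and 116 CPM in control cells (log2 -0.77 ± 0.10, SE, edgeR adjusted p = 0.000958). None of the 6 rose, and the median log2 fold change was 0.19. That is 16.7% of the list, close to the 15.4% over all tested genes. ITPR3, another such channel, did not pass (log2 0.32 ± 0.10, SE, edgeR adjusted p = 0.0581), and passed without B35 replicate 1 (edgeR adjusted p = 0.0494). CA8 itself was barely detected.

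Genes of the HIF pathway were set beside CA9. Transcripts of HIF1A and EPAS1, the oxygen-regulated HIF subunits, overlapped between groups and did not pass (edgeR adjusted p = 0.804 and 0.925). The protein and activity of these subunits were not measured. Of 10 HIF subunits and oxygen sensors 2 rose, EGLN3, a HIF prolyl hydroxylase, by 4.86-fold and ARNT2, a partner subunit, by 3.05-fold, with a list median of log2 0.19. These 2 of 10 stand beside 15.4% called in either direction and 8.82% called higher over all tested genes. Of 20 HIF-induced genes listed without CA9, 9 rose and none fell (45.0%, median log2 0.34), beside 8.82% called higher over all tested genes. Like the other lists, both HIF lists were drawn up with earlier results of these data known. Their shares are therefore a description and not a test. ANGPTL4 at 4.39-fold and ADM at 3.07-fold led these in fold, and MXI1 (2.59-fold), AK4 (2.34-fold), PFKFB4 (2.12-fold) and NDRG1 (1.97-fold) followed. Of the 11 that did not pass, the glycolytic genes LDHA (log2 -0.17, edgeR adjusted p = 0.180) and PGK1 (log2 -0.19, edgeR adjusted p = 0.165) were lower in every B35 library than in any control library. In the same 11, BNIP3L, KDM3A, P4HA2, SLC2A1 and PDK1 were higher in every B35 library than in any control library, and the rest overlapped. Over all tested genes, groups without overlap were found for 17.5% lower and 18.8% higher with B35. Each of the 6 folds given was smaller than that of CA9, a difference that was not tested. Across the B35 libraries ADM and ANGPTL4 were highest in replicate 3, as CA9 was, while EGLN3 and MXI1 were highest in replicate 1, where CA9 was lowest.

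**Figure D3:**
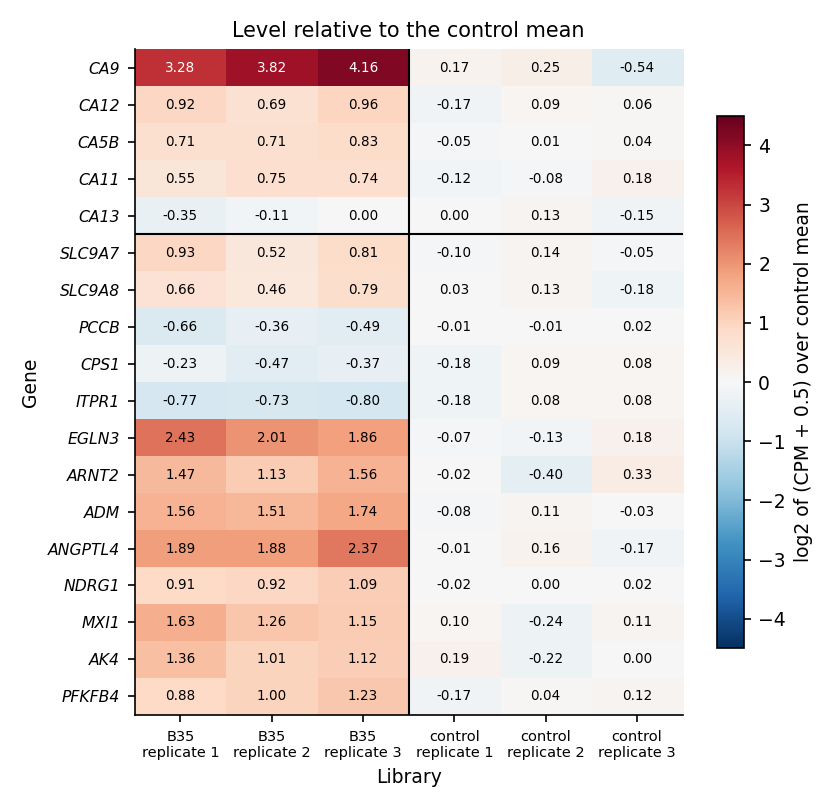
Level in each library relative to the control mean, as log2 of (CPM + 0.5) over the control mean of the same, for the 5 tested carbonic anhydrases (above the line) and the genes that passed in the other lists (below it, up to 6 per list). CA9 stands at 3.28, 3.82 and 4.16 in the B35 libraries, and CA13 lies between -0.35 and 0.13 in all libraries.

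**Figure D4:**
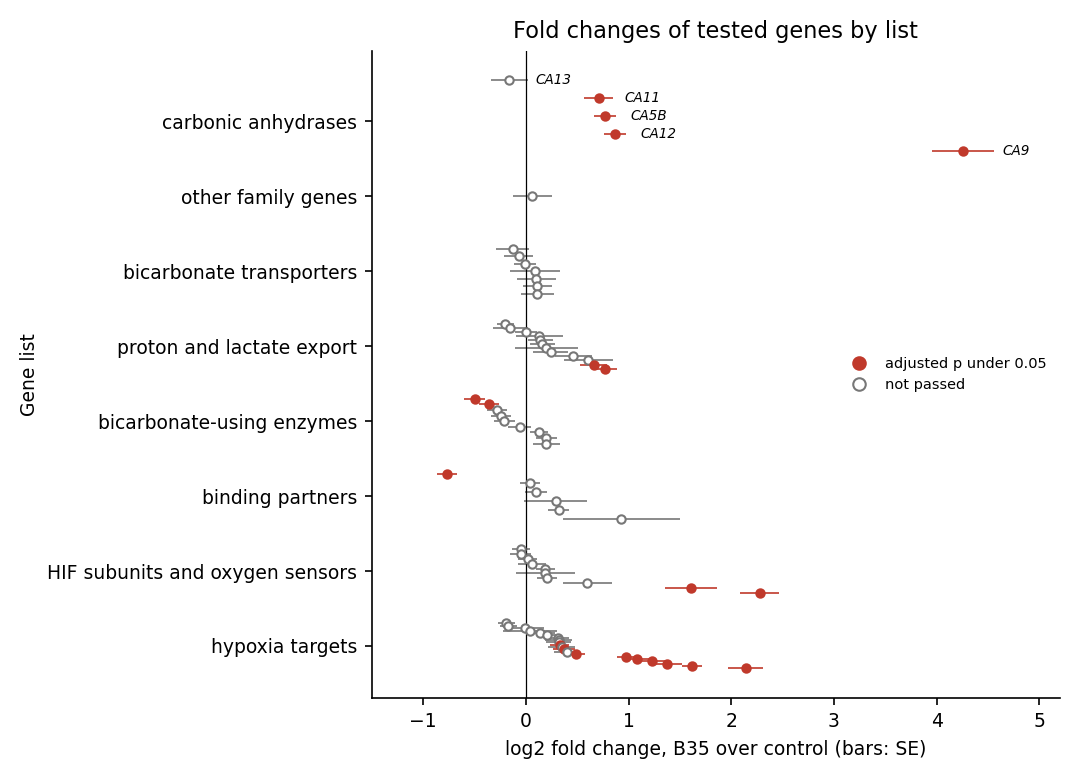
Log2 fold change of B35 over control for each tested gene, by list, with bars for the SE and filled red points for an adjusted p under 0.05. CA9 at 4.26 lies to the right of every other gene plotted, and all 7 tested SLC4 and SLC26 genes (bicarbonate transporters list) lie near 0.

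Library totals ran from 17209863 to 18530670 counts with B35 and from 17141478 to 18398450 counts in control cells. The epithelial keratins KRT7, KRT8 and KRT18 had 430 to 1693 CPM, EPCAM had 3.09 to 7.40 CPM and CDH1 had at most 1.55 CPM. The leukocyte genes PTPRC, CD3E and CD14 had at most 0.113 CPM, while the endothelial gene CDH5 had 4.85 to 8.66 CPM in both groups and did not pass. The stromal gene PDGFRB had 0.509 to 2.71 CPM, while the stromal genes DCN and COL3A1 had at most 0.422 and 0.113 CPM. The endothelial gene PECAM1 had at most 0.622 CPM. Of 13 marker genes in all 7 were tested, of which KRT8 fell and EPCAM rose (CDH1 also fell without B35 replicate 1). These calls are 28.6% of the tested markers, beside 15.4% of all tested genes. The part of the markers in the carbonic anhydrase differences was not tested. KDM1A did not pass (edgeR adjusted p = 0.432), and its transcript is no measure of enzyme activity. In bulk RNA, a different share of cells expressing a gene and a different level per cell cannot be told apart.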

How the data were processed

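Gene expression was measured by RNA sequencing in 6 libraries, 3 of B35-treated and 3 of untreated A549 cells. The submitters' processing notes name HISAT2 2.0.5, featureCounts 1.5.0-p3 and the build hg38. The authors deposited a whole-number count and an FPKM value per gene for 58735 identifiers, all of which are in GENCODE 29, per the file headers and the annotation. The strand setting and the library size behind the FPKM are not stated there.

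Counts were tested in R 4.3.3 with edgeR 4.0.16 (quasi-likelihood, two-sided) on genes kept by filterByExpr (count of 10, total of 15), scaled by TMM. Benjamini-Hochberg adjustment ran over 14773 genes, with a threshold of 0.05. CPM use the TMM factors. The SE is the log2 fold change divided by the square root of F. The deposited FPKM served only for levels between genes. The members and the gene lists were chosen with earlier results of these data known. Named genes were all members, other family genes, genes sharing member exons, up to 6 genes per list that passed (or the 2 with the highest CPM), KDM1A, and the 3 genes most like CA9 and CA12. ITPR3, EPAS1, HIF1A, LDHA, PGK1 and the markers were named after their values were seen. BNIP3L, KDM3A, P4HA2, SLC2A1 and PDK1 were also named in this way, and were not followed over the alternative settings. The fit was tested on simulated data. No replicate pair was within sampling noise (chi-square over its degrees of freedom, 4.46 to 32.3), so none was merged. Alternatives were RLE scaling, upper-quartile scaling, all genes with a count, a mean CPM of 1 or more, robust dispersion, DESeq2 1.42.0, limma-voom (limma 3.58.1), the replicate number as a term, each library left out, and CPM per kilobase in place of FPKM. Tables used Python 3.11.15 and matplotlib 3.10.9.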

Additional observations from a re-analysis of the deposited data

How the results depend on the processing

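CA9, CA12, CA5B and CA11 kept their direction and stayed past the threshold under all 14 alternatives to the fit, and CA13 stayed below 0 and did not pass in any. The count over all genes was 881 to 3342 with 1 library left out, against 2276 with all. It was 881 without control replicate 3, 1286 without control replicate 2 and 1079 without control replicate 1. The highest count, 3342, was found without B35 replicate 1, the library that lay apart on the second principal component. Left out in the same way, proton and lactate export gave 1 to 4 calls against 2, bicarbonate-using enzymes 0 to 3 against 2, and binding partners 1 to 2 against 1. With upper-quartile scaling 1 bicarbonate-using enzyme passed. Binding partners gave 2 calls with upper-quartile scaling, with no filter and with DESeq2. With 1 library left out, log2 fold changes changed sign for 7 of the named genes, none of which had passed: CA5BP1 (-0.12 to 0.05, above 0 without B35 replicate 2 or control replicate 1), PTPRG (-0.18 without B35 replicate 1, to 0.17), SLC4A2 (-0.29 to 0.04, the last without B35 replicate 1), SLC26A6 (-0.20 to 0.06, the last without control replicate 2), HIF1A (-0.11 to 0.15, below 0 without B35 replicate 1 or control replicate 2), EPAS1 (-0.03 to 0.09, below 0 without B35 replicate 1 or 2) and KRT7 (-0.05 to 0.04). KRT7, at 0.01, was also -0.0019 with RLE scaling and with DESeq2 and -0.0036 with no filter. UBA7 passed with upper-quartile scaling and without B35 replicate 1, ITPR3 also with no filter and with DESeq2, and CDH1 passed without B35 replicate 1 (log2 -1.81). Some of these fits hold fewer libraries, and the cause of these changes was not tested. CPM per kilobase moved no member's level by more than 1 SD from its FPKM. With the replicate number as a block 2855 genes passed, the member calls were unchanged, hypoxia targets gave 12 calls and proton and lactate export 3. Same-numbered libraries deviated together with r = 0.208, 0.0457 and -0.0867, so the numbers were not taken as pairs. At this depth CA2 and CA8 could not be compared.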
